A study of Rattus norvegicus with 6 samples.

Results

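The genes described here are 34 rat genes of 2 arms of immune defence, the complement cascade and the presentation of antigens on MHC molecules, which the rat calls RT1. They were listed by name, with earlier results of these data known. A listed gene was followed where the transcript accession of an array probe matches its symbol in the RefSeq gene table. Of the 34, 32 had a probe, and 31 had a signal well above background. These 31 are among 11965 genes tested, out of 15284 named genes on the arrays. C4b and Cd59 were not matched to a probe and were not analysed here. The single RT1-Ba probe failed the background flag of the scanner software on all arrays. Each of the 31 measured genes was well above background on all 6 arrays.

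The tissue was renal cortex of male Sprague-Dawley (Crl:CD(SD)) rats, bought at 5 weeks of age and given either water or nitrilotriacetic acid trisodium monohydrate (NTA) for 4 weeks. NTA is a chelator of metal ions. The treated animals received 1000 mg/kg/day. Each group had 3 animals, with 1 Cy3-labelled array per animal, and the series calls them biological replicates. All animals shared strain, sex, diet and housing, and the labels give no earlier time point, lower dose or recovery group.

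Complement is a chain of plasma proteases. C1q binds antibody on a surface and activates C1r and C1s, which cut C4 and C2. The resulting enzyme cuts C3, factor B and factor D amplify the reaction, and C1 inhibitor, factor I, Cd55 and Cd59 restrain it. In antigen presentation, the immunoproteasome cuts proteins inside the cell, Tap1 and Tap2 carry the peptides into the endoplasmic reticulum, and tapasin loads them onto class I molecules paired with B2m. Class II molecules present peptides from outside the cell, with Cd74 as their chaperone and Ciita as the master activator of their genes. In the kidney, class II and C1q messages are known mainly from resident macrophages and dendritic cells, whereas C3, C4 and factor B are also made by tubular epithelium.

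The promoters of antigen presentation genes are shown beside the patterns described below. The measured class II genes shared their lowest animal, NTA 2, and the class I loading genes their highest, water 2. RefSeq promoter windows (build GRCr8, 250 bases before the gene start and 50 after it) were at hand for 25 of the 34 genes, and 12 of these 25 windows lie on chromosome 20, where the MHC is. A total of 5 short motifs was searched on both strands. They were the core of the X box (GNAACNGAT) and the Y box (GATTGG), which mark class II promoters, the core of the interferon-stimulated response element or ISRE (GAAANNGAA), the STAT site GAS (TTCNNNGAA) and the NF-kB site (GGGNNTTTC). The 130 bases just before the start are printed 5′ to 3′ on the gene's strand, and capitals mark a match to any of these motifs, including matches that overlap each other. The class II set, shown for its X and Y boxes, comes first and the class I set, shown for its ISRE cores, follows. In the latter, Psmb10 and Psme2 are proteasome genes that were highest in NTA 3, not in water 2. RT1-Ba is printed though it was not measured, and B2m and Tap1 are not printed.
RT1-Da, chr20:4515285-4515414, plus strand: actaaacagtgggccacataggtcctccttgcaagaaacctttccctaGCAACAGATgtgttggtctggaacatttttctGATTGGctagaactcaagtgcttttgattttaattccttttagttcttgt
RT1-Db1, chr20:4560163-4560292, minus strand: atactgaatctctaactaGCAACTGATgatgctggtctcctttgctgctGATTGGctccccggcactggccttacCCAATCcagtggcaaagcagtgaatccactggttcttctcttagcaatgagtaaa
RT1-Ba, chr20:4576927-4577056, plus strand: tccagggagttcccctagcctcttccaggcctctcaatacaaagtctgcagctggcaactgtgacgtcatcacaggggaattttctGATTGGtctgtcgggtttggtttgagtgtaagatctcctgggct
RT1-Bb, chr20:4604119-4604248, minus strand: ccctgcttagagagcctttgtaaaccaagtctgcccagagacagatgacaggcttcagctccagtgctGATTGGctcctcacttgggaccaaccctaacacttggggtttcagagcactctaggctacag
RT1-DMa, chr20:4712336-4712465, minus strand: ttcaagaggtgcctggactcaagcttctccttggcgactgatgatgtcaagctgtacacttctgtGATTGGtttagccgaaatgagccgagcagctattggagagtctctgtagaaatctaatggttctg
Tap2, chr20:4652297-4652426, minus strand: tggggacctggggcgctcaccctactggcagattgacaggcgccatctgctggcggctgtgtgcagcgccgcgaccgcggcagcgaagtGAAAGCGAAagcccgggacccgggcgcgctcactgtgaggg
Tapbp, chr20:4967878-4968007, minus strand: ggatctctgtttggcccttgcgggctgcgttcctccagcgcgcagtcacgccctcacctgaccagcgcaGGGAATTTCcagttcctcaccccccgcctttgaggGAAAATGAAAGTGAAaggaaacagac
Psmb10, chr19:50743293-50743422, minus strand: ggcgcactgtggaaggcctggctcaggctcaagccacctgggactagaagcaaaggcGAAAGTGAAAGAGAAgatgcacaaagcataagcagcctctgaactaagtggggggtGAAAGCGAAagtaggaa
Psme2, chr15:33052752-33052881, minus strand: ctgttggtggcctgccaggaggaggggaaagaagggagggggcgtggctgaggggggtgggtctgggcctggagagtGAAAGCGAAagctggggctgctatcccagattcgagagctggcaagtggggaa

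The Y box was found in 5 of 5 class II RT1 windows and in 14.8% of all 33469 RefSeq promoter windows of 300 bases. It was also found in 2 of 9 class I loading, immunoproteasome and PA28 windows, B2m and Psmb9, and in 0 of 10 complement windows. The X box core was found in RT1-Da, RT1-Db1 and RT1-Bb, against 2% of all windows. The RT1-Bb match starts at base -185 and so lies outside the stretch printed above, far from the Y box at -62. In RT1-Da the X box core starts at -82 and the Y box at -50. In RT1-Db1 they start at -112 and -81, so the RT1-Bb match is not spaced like these. The ISRE core was found in 7 of 9 class I loading, immunoproteasome and PA28 windows (B2m, Tap1, Tap2, Tapbp, Psmb8, Psmb10 and Psme2), against 9.71% of all windows. It was found in 0 of 5 class II RT1 and 0 of 10 complement windows. The window of Cd74, counted apart from the RT1 genes, held the NF-kB motif and no match to the other 4. The NF-kB motif was found in 7 of 25 windows (4.53% of all windows) and GAS in 2 of 25, C1qa and Psmb8 (8.87% of all windows). The windows of Tap1 and Psmb9, a divergent pair, overlap. These are matches of letters and do not show that a factor binds there.

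All values below are log2 signal minus the array's own 75th percentile. A level is therefore relative to that percentile, a difference of 1 is a doubling, and levels of different probes are not compared. The 75th percentile lay between 1133 and 1316 intensity units over the 6 arrays, and 68.4% to 73.5% of probes were well above background. Per the file headers, water 1 and NTA 2 shared slide 3 and were scanned on day 2. Water 2 and water 3 were on slide 1, NTA 1 and NTA 3 on slide 2, and both slides were scanned on day 1. Cortex markers were present, with 12 of 12 proximal tubule and 8 of 8 podocyte genes measured, but so were 10 of 10 collecting duct genes, which cortex and medulla share. The proximal tubule enzyme Miox lay between 9.17 and 9.31 on the 6 arrays. The number of arrays limits the precision of every value, and in whole cortex fewer cells of a type and less RNA per cell cannot be told apart.

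None of the 31 genes passed the test between NTA and water, while 1 of the 3 NTA animals had the lowest signal of all 6 animals in C1q, C2, C3 and the 7 class II genes. With limma and Benjamini-Hochberg adjustment over all 11965 genes, 0 of 31 were called at an adjusted p of 0.05, against 9 of all genes (0.0752%). The lowest adjusted p among the 31 was 0.401, for Serping1. At an unadjusted p under 0.05, 1 of 31 passed, again Serping1, where 12.3% of all genes did. The 3 NTA arrays lay above all 3 water arrays for 1 gene, Psme1, where the share over all genes was 13%, and below them for 0 genes, where the share was 7.23%. The counts of these genes therefore did not exceed the background.

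The median NTA minus water difference was 0.07 over the 31 genes and 0.02 over all genes tested. Of the 31, 20 were above 0, and of all genes 6754 of 11965 were. The 15 complement genes had a median of 0.10 and the 16 antigen presentation genes 0.05. The mean level of all 31 genes was 1.55, 1.56 and 1.29 in the water animals and 1.62, 1.15 and 1.78 in the NTA animals. NTA 2 was thus the lowest and NTA 3 the highest of the 6, and the groups overlapped. The mean was 1.46 ± 0.15 (SD, n = 3) with water and 1.51 ± 0.33 (SD, n = 3) with NTA.

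**Figure D1:**
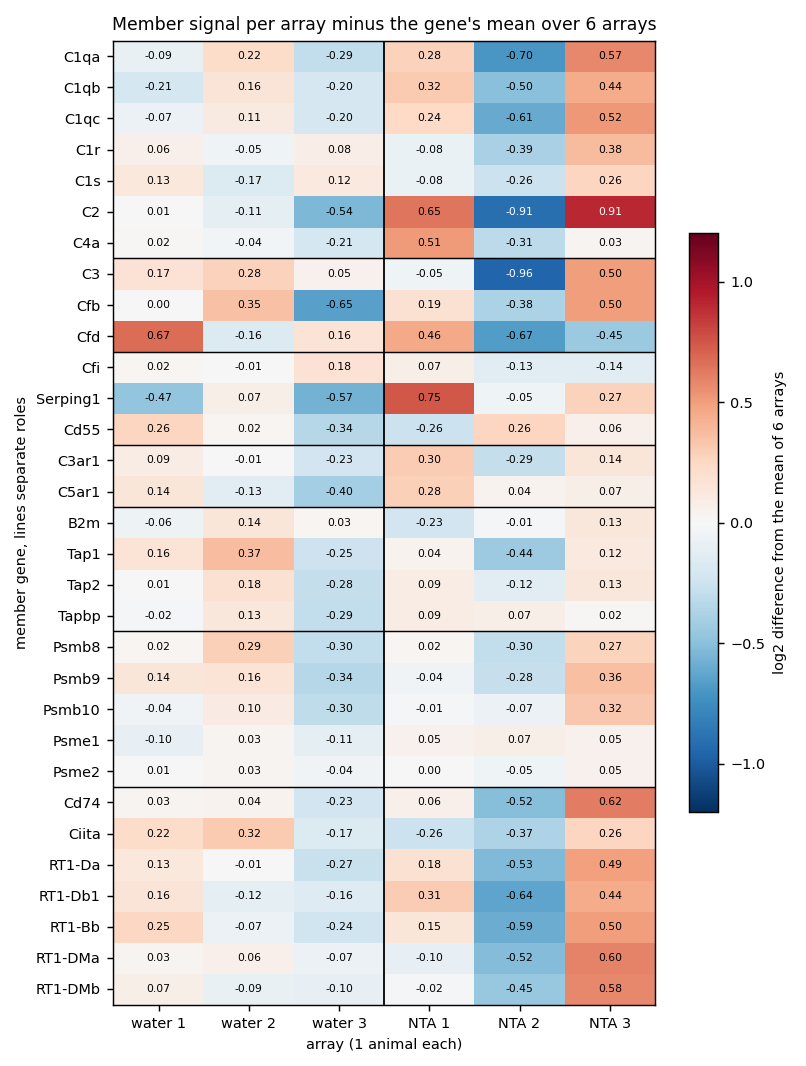
Signal of each of the 31 measured genes on each array (columns) minus that gene's mean over the 6 arrays, in log2 units; red is above and blue below the mean, and lines separate the roles. NTA 2 was the lowest array for all 7 genes of C1, C2 and C4a and all 7 class II genes, and NTA 3 the highest for 17 of the 31 genes.

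The animals differed in a patterned way within the treated group. NTA 2 had the lowest value of the 6 arrays in 19 of 31 genes (61.3%), against 15.1% of all genes with a value on every array. NTA 3 had the highest value in 17 of 31 (54.8%), against 13.3% of all genes. The SD was larger among NTA than among water animals in 23 of 31 genes (74.2%), where this held for 52.3% of all genes. The median SD of the 31 was 0.20 with water and 0.39 with NTA, and over all genes it was 0.11 and 0.12. NTA 2 lay below the mean of NTA 1 and NTA 3 by a median of 0.54 on the log2 scale (a difference of -0.54), and the same median over all genes was 0.01. That NTA 2 may differ from the other treated animals was already stated when the genes were chosen. These counts therefore describe which animals differed and are no independent support for a difference of NTA 2. No test of one animal against others was made.

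The C1 complex, C2 and C4a spread more between treated animals than between water animals. C1qa, C1qb and C1qc encode the 3 chains of the recognition molecule. C1qb stood at 3.27, 3.64 and 3.28 in the water animals and at 3.80, 2.98 and 3.92 in the NTA animals. NTA 1 and NTA 3 were above every water animal and NTA 2 was below every one. The difference was 0.17 ± 0.27 (SE), with an adjusted p of 0.835 (limma). C1qa, at 2.17, 2.48 and 1.96 with water and 2.53, 1.56 and 2.83 with NTA, had the same order among the treated animals. C1qc followed it too, with NTA values of 0.85, 0.00 and 1.13 around water values of 0.40 to 0.72. The second probes of C1qa, C1qb and C1qc gave differences of 0.07, 0.18 and 0.06, beside 0.10, 0.17 and 0.11 for the first.

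C2, the protease subunit of the classical C3 convertase, had the widest range of the 31. It was -0.94, -1.06 and -1.49 with water and -0.30, -1.86 and -0.04 with NTA. NTA 2 was thus below the mean of the other treated animals by 1.68 on the log2 scale (a difference of -1.68), and its second probe gave a gap of -1.66. The difference between groups was 0.43 ± 0.49 (SE), with an adjusted p of 0.767 (limma). C4a, a C4 gene whose product C1s cleaves, was 4.34, 4.29 and 4.11 with water and 4.83, 4.01 and 4.35 with NTA. C4a has a near-identical copy, C4b, so the probe may read both. The proteases C1r and C1s had differences of -0.07 ± 0.19 and -0.05 ± 0.16 (SE). For both, NTA 2 was the lowest and NTA 3 the highest of the 6 animals.

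C3, the central component of the cascade, was steady in the water animals at 0.84, 0.95 and 0.72. The NTA animals had 0.62, -0.29 and 1.17. NTA 2 was below all other animals and NTA 3 above them. The difference was -0.34 ± 0.36 (SE), with an adjusted p of 0.750 (limma). Without NTA 2 it was 0.06, so 1 animal set the sign of the C3 difference. Factor B (Cfb), the protease subunit of the alternative pathway convertase, varied among water animals as much as among treated ones, at -0.29, 0.07 and -0.94 against -0.10, -0.67 and 0.21. Factor D (Cfd), which cleaves factor B and is a known product of fat cells, had the most negative difference of the 31, -0.44 ± 0.35 (SE, adjusted p of 0.651 in limma). Its values were -1.47, -2.30 and -1.98 with water and -1.68, -2.81 and -2.59 with NTA, which overlap.

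**Figure D2:**
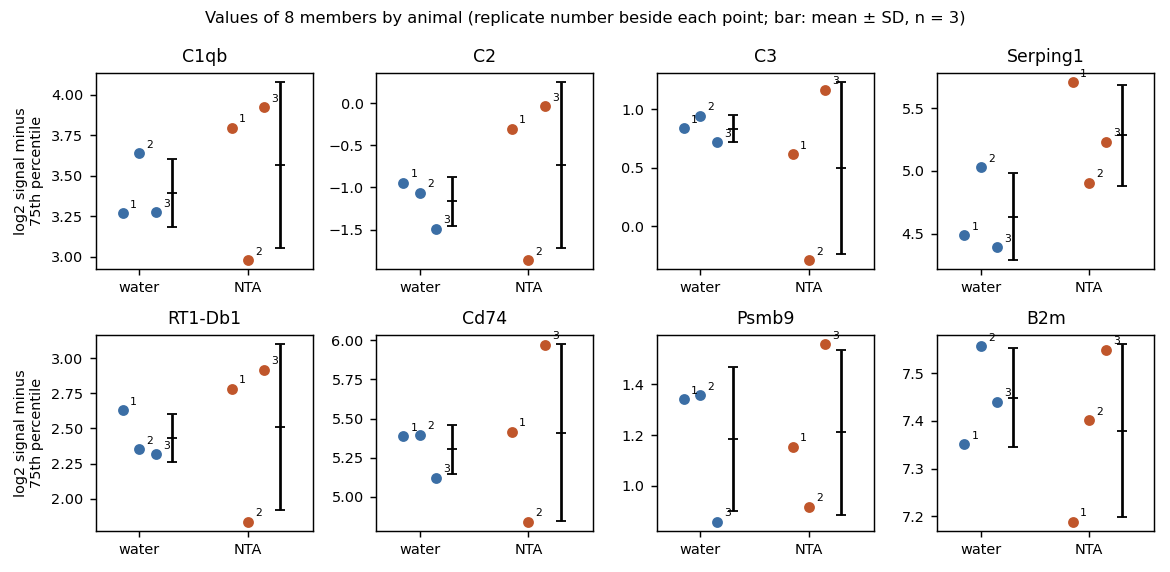
Log2 signal minus the array's 75th percentile (vertical axis, its own range in each panel, not starting at 0) of 8 genes in water and NTA animals; numbers beside points are replicate numbers, and bars show the mean ± SD (n = 3). For C1qb, C2, C3, RT1-Db1 and Cd74 the point of NTA 2 lies below all other points, whereas for Serping1 and B2m it does not.

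Among the complement regulators, Serping1 came closest to the threshold. It encodes C1 inhibitor, which inactivates C1r and C1s. Serping1 was 4.49, 5.03 and 4.39 with water and 5.71, 4.91 and 5.23 with NTA. NTA 1 and NTA 3 lay above all water animals, and NTA 2 lay below water 2, so the groups overlapped. The difference was 0.65 ± 0.26 (SE, 95% interval 0.01 to 1.28), or 1.56-fold, with an unadjusted p of 0.048 and an adjusted p of 0.401 (limma). Its other 2 probes gave differences of 0.74 and 0.79. The sign was the same on the shared slide, where NTA 2 was 0.42 above water 1, and on the other scan day, where the difference was 0.76. On that other day the groups were on separate slides, so treatment and slide cannot be told apart.

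Cfi, factor I, which degrades C3b and C4b, had the reverse sign at -0.13 ± 0.09 (SE), with values of 0.49 to 0.67 in water and 0.36 to 0.57 in NTA animals. Cd55, which breaks up convertases on cell surfaces, differed by 0.04 ± 0.20 (SE), and its 2 probes disagreed in sign (0.04 and -0.20). Cd59b, listed with Cd59 as an older name, was not among the 34 genes. It varied between 3.56 and 3.73 over all 6 arrays. The receptors of the anaphylatoxins, C3ar1 and C5ar1, which draw leukocytes to sites of complement activation, differed by 0.10 ± 0.17 and 0.26 ± 0.15 (SE). C5ar1 was -1.93, -2.21 and -2.48 with water and -1.79, -2.04 and -2.00 with NTA. Both receptors were highest in NTA 1, and the second C3ar1 probe placed the group means level, at -3.83 each.

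The class I loading genes had another highest animal than most class II genes and most genes of C1, C2 and C4a. The split was not complete, since Tap1 was lowest in NTA 2, as the class II genes were. B2m, the invariant light chain of class I, was 7.35, 7.56 and 7.44 with water and 7.19, 7.40 and 7.55 with NTA. Tap1 was -1.32, -1.11 and -1.73 with water and -1.44, -1.92 and -1.36 with NTA. For B2m, Tap1, Tap2 and Tapbp alike, water 2 was the highest of the 6 animals, as it was for 11.6% of all genes. The 4 differences lay between -0.19 (Tap1) and 0.12 (Tapbp), and every 95% interval included 0. The 5 B2m probes all had a difference between -0.17 and -0.05.

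The immunoproteasome subunits Psmb8, Psmb9 and Psmb10, which replace constitutive subunits under interferon, differed by -0.01 ± 0.20, 0.03 ± 0.21 and 0.16 ± 0.15 (SE). Psmb9 was 1.34, 1.36 and 0.86 with water and 1.15, 0.92 and 1.56 with NTA. Water 3 was the lowest animal for all 3 subunits and NTA 2 was low for Psmb8 and Psmb9. The PA28 proteasome activator subunits varied little. Psme1 was 5.24, 5.37 and 5.22 with water and 5.39, 5.41 and 5.39 with NTA. These groups did not overlap, by a gap that is small beside the spread of the water animals, and the difference was 0.12 ± 0.06 (SE, adjusted p of 0.512 in limma). Its second probe overlapped between groups, with a difference of 0.07. Psme2 stayed between 4.81 and 4.92 on all arrays.

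The class II genes had the same lowest animal as C1, C2 and C4a. In 7 of 7 measured class II genes NTA 2 was the lowest of the 6 animals, and in 6 of 7 NTA 3 was the highest, Ciita being highest in water 2. Cd74, the invariant chain, was 5.39, 5.40 and 5.12 with water and 5.42, 4.84 and 5.97 with NTA. RT1-Db1, a DR-type beta chain, was 2.63, 2.35 and 2.31 with water and 2.78, 1.84 and 2.92 with NTA. RT1-Da, its alpha partner, was 3.19, 3.05 and 2.79 against 3.24, 2.53 and 3.55. RT1-Bb, a DQ-type beta chain, was 3.26, 2.95 and 2.77 against 3.16, 2.42 and 3.52. In each of the 4 the water animals kept within 0.5 and the treated animals spread over about 1 log2 unit.

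RT1-DMa and RT1-DMb, which exchange Cd74 fragments for peptides, had water values of 1.68 to 1.82 and 1.52 to 1.69. Their NTA values were 1.66, 1.23 and 2.35 for RT1-DMa and 1.60, 1.17 and 2.20 for RT1-DMb. Ciita was -1.37, -1.27 and -1.75 with water and -1.85, -1.96 and -1.33 with NTA, a difference of -0.25 ± 0.21 (SE). The NTA SD exceeded the water SD in 7 of 7 class II genes, with medians of 0.56 and 0.17. All differences lay between -0.25 and 0.11, with a median of 0.07, and adjusted p-values (limma) ranged from 0.668 to 0.990. The 5 RT1-Db1 probes placed NTA 2 below the other treated animals by like amounts, with values of -1.06 to -0.98. Related RT1 sequences may share probes, so the RT1 genes are not independent of each other.

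**Figure D3:**
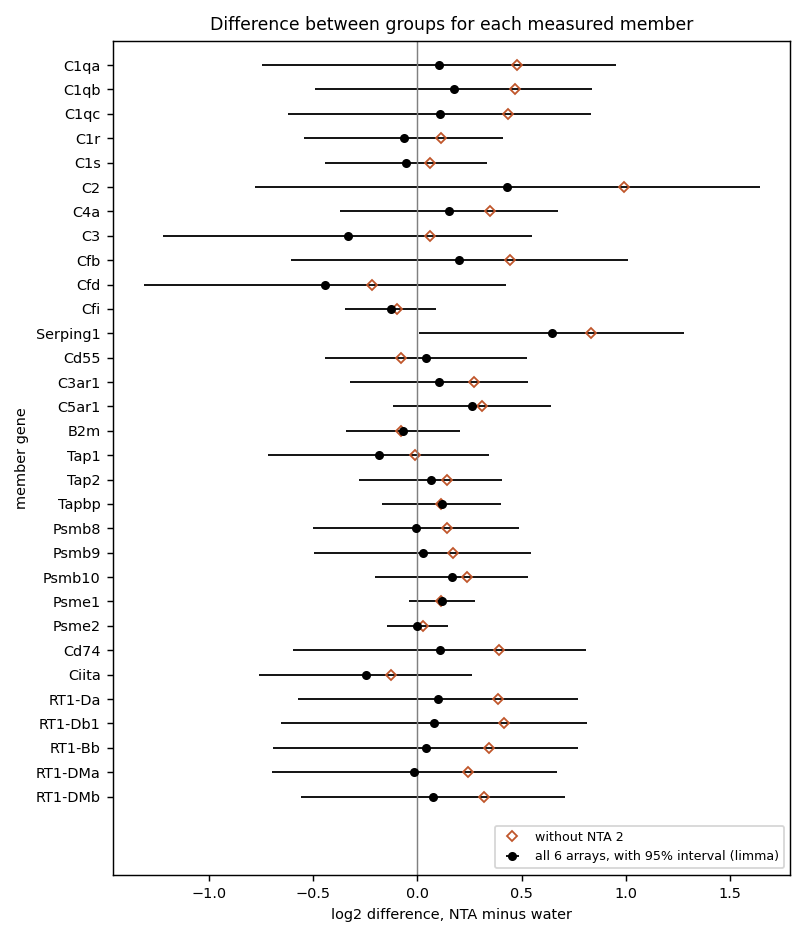
NTA minus water difference in log2 units (horizontal axis) for each of the 31 genes; black points with bars give the estimate and 95% interval from limma over 6 arrays, and open diamonds give the difference without NTA 2. The interval of Serping1 starts at 0.01 and all others include 0; the diamonds of C1q, C2 and most class II genes lie further to the right than the points.

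Leaving out NTA 2 moved the median difference of the 31 genes to 0.24, with 25 of 31 above 0, and left 0 of 31 called (background 0.0334%). The lowest adjusted p was then 0.313, for C2. At an unadjusted p under 0.05 (limma), 5 of 31 passed, C1qb, C1qc, C2, Serping1 and RT1-Db1, where 11.3% of all genes did. NTA 2 was the lowest treated animal for each of these 5, so leaving it out had to raise their differences. This count is therefore a description only. C2 differed by 0.99 without NTA 2 and C1qb by 0.47 ± 0.14 (SE). Leaving out NTA 3 instead gave a median of -0.12. Leaving out water 3 gave -0.02, with 12 of 31 above 0. The sign of the median thus rested on single animals of either group.

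The slides gave opposite values as well. On the slide that holds both groups, NTA 2 minus water 1 had a median of -0.39 over the 31 genes, and the all-gene median was 0.02. On the other scan day, NTA 1 and NTA 3 minus water 2 and water 3 had a median of 0.25, and the all-gene median was 0.03. Each group had its own slide on that day, so treatment and slide cannot be told apart there. Class II gave -0.59 and 0.43, and C1, C2 and C4a gave -0.45 and 0.40. NTA 2 was the only treated array on its slide and day, so animal, slide and scan day cannot be told apart for it. The class II mean was 2.37 in water 1, on the same slide and day, and 2.26 and 2.06 in the other water animals. The part of slide or day in these values was not tested.

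Other genes of these pathways, from lists written with earlier results of these data known, gave 1 call. Their counts at an unadjusted p under 0.05 stand against 12.3% of all genes, 929 of them higher and 540 lower of 11965. In the list of complement regulators, 1 of 12 measured genes was called higher and 0 lower. This was Csmd1, a large membrane protein with complement-inhibiting domains. Csmd1 was -5.11, -5.55 and -5.13 with water and -3.09, -2.56 and -2.28 with NTA, with no overlap. The difference was 2.62 ± 0.24 (SE, adjusted p of 0.0495 in limma), and the probe was well above background on 2 of 3 water arrays. The probe was thus kept only through the NTA group, where its signal was high, so its call is a description only. A filter on all 6 arrays leaves Csmd1 out. With quantile normalization, without the filter on dim probes, and with scan day or replicate number as a block, limma called 0 of all genes, Csmd1 included. Csmd1 was not called with any 1 of the 6 arrays left out, NTA 2 among them. Clu, a chaperone that also blocks the terminal complex and was named after its values were seen, had means of 3.13 with water and 4.29 with NTA. Every treated animal lay above every water animal, and its difference of 1.16 was not called (limma).

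In the list of classical and lectin genes, 0 of 11 were called and 2, both of the lectin pathway, which starts the cascade from sugars, passed an unadjusted p under 0.05. Masp2, the lectin pathway protease, was -4.26, -3.91 and -4.01 with water and -3.53, -3.52 and -3.33 with NTA, a difference of 0.60 ± 0.12 (SE, adjusted p of 0.210 in limma). In Masp2 no treated animal overlapped with a water animal, NTA 2 included. Mbl1, a mannose-binding lectin, differed by 0.79 ± 0.26 (SE, adjusted p of 0.339 in limma), and here NTA 2 at 0.63 lay just below water 2 at 0.65. Among the alternative and terminal genes, 0 of 6 were called and 0 passed an unadjusted p under 0.05. Properdin (Cfp) differed by 0.09, C6 by 0.21 and C8b by -0.64. Of 5 complement receptors 0 were called and 0 passed unadjusted, and Itgb2 and Cd93 differed by 0.09 and 0.20.

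In the class I list, 0 of 36 measured genes were called, 2 passed an unadjusted p under 0.05, and the median difference was 0.05. NTA 2 was the lowest treated animal in 30 of the 36. The class I heavy chain RT1-A1 was 5.47, 5.57 and 5.28 with water and 5.57, 5.40 and 5.73 with NTA. Class I heavy chain genes are near-identical copies, so these probes may read several of them. The peptide-loading chaperones Calr and Tapbpl were these 2, above every water animal in all 3 treated animals, by 0.24 and 0.35 (adjusted p of 0.356 and 0.405 in limma). The 15 constitutive proteasome genes had a median difference of 0.02, 0 calls and 0 passing unadjusted, with Psma4 and Psma5 at 0.12 and 0.13.

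In the class II list, 0 of 18 were called, with a median of 0.01, and 3 passed an unadjusted p under 0.05, all lower in NTA. Lgmn, a lysosomal protease, was 6.22, 6.18 and 6.15 with water and 5.79, 5.81 and 5.96 with NTA, a difference of -0.33 ± 0.07 (SE, adjusted p of 0.218 in limma). Rfxap, a subunit of the factor that binds the X box, was -0.11, -0.04 and -0.06 with water and -0.22, -0.35 and -0.30 with NTA, a difference of -0.22 ± 0.06 (SE, adjusted p of 0.286 in limma). The third was Cd86, a co-stimulatory ligand, at -0.57. Cd86, Ctss, a protease that trims Cd74, and RT1-Db2 were named after their values were seen. Ctss was 2.58, 2.67 and 2.51 with water and 2.99, 2.18 and 2.94 with NTA, and RT1-Db2 was 1.16, 1.01 and 0.83 against 1.25, 0.41 and 1.44. Both had NTA 2 as the lowest of the 6 animals.

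The 36 measured interferon response genes had a median difference of -0.03, 0 were called and 2 passed an unadjusted p under 0.05, Ifi35 and Socs1. Their mean was -0.05, 0.29 and -0.36 in the water animals and -0.06, -0.35 and 0.10 in the NTA animals. Water 2 was the highest array in 22 of the 36 and water 3 the lowest in 16. Irf7, Oas1a and Usp18, interferon-induced genes named after their values were seen, were highest in water 2 as well, but lowest in NTA 2, with water 3 next. Irf7 was 1.20, 2.43 and 0.97 with water and 1.57, 0.59 and 1.85 with NTA. Oas1a was 0.73, 1.87 and 0.41 against 1.28, 0.15 and 1.50. The class I loading and immunoproteasome means were likewise lower in water 3 than in any other animal, and within the water group highest in water 2. By the rule for naming genes, Ifi35 differed by 0.30 (adjusted p of 0.349), Socs1 by -0.33 (0.282) and Igtp by -0.01 (0.959), all in limma.

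**Figure D4:**
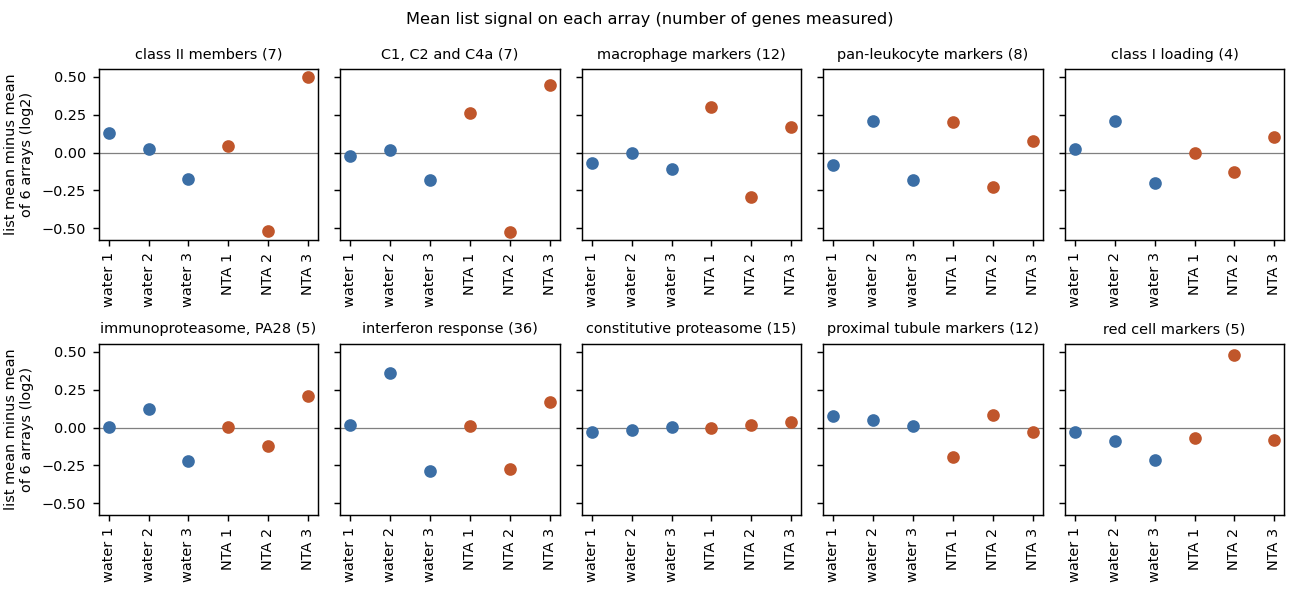
Mean log2 signal of each gene list on each array minus the mean over the 6 arrays (vertical axis); water animals are blue, NTA animals orange, and the number of measured genes stands in brackets. Class II, C1 with C2 and C4a, macrophage and pan-leukocyte genes were lowest in NTA 2, the interferon response was highest in water 2, and red cell genes were highest in NTA 2.

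Macrophage and pan-leukocyte markers had their lowest mean in NTA 2, though not gene by gene. Of 15 macrophage markers 12 were measured, Cd163 and Marco did not pass the background filter, Ms4a7 was not matched, and 0 were called or passed an unadjusted p under 0.05 in limma. Their mean was 0.54, 0.60 and 0.50 in the water animals and 0.91, 0.31 and 0.77 in the NTA animals, with NTA 2 lowest and NTA 1 highest. Single markers were lowest in NTA 2 in 6 of 12. The lysozyme gene Lyz2 was 6.23, 6.45 and 6.44 with water and 6.85, 6.42 and 6.98 with NTA. Tyrobp, a signalling adaptor of myeloid cells, was 3.48, 3.66 and 3.29 against 3.82, 3.40 and 3.79. In both genes NTA 2 was the lowest treated animal but lay above a water animal. Of 8 pan-leukocyte markers 8 were measured and 0 passed either threshold, with means of 0.03, 0.32 and -0.07 against 0.31, -0.12 and 0.19. NTA 2 lay below the mean of NTA 1 and NTA 3 by a median of 0.56 in macrophage and 0.49 in pan-leukocyte markers on the log2 scale (differences of -0.56 and -0.49), against 0.85 in class II and 0.88 in C1, C2 and C4a genes (differences of -0.85 and -0.88). A kidney epithelial list also had its lowest mean in NTA 2, since 5 of 10 collecting duct markers were lowest there, with a median gap to the other treated animals of -0.27. The T cell, dendritic cell and adipocyte lists had their lowest mean in NTA 2 as well, at -2.90, -3.54 and -0.67. In adipocyte markers the median gap was -0.44. The part of any of these cells in the result was not tested.

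Of 13 T cell markers 11 were measured, 8 of them below 0, and NTA 2 stood 0.42 below the other treated animals (a median of -0.42). Of 8 B cell markers 4 were measured, and 4 of 4 had a difference above 0, where 56.4% of all genes did. The B cell median was 0.49 (0.28 without NTA 2) against 0.02 over all genes, and 0 passed an unadjusted p under 0.05 in limma. These 4 genes had a median SD of 0.13 with water and 0.66 with NTA. Cd79b, a B cell receptor subunit, was higher in NTA 1 and NTA 2 than in NTA 3. Of 10 dendritic cell markers 6 were measured 2 of these were above 0, and 2 were lowest in NTA 2. Cd209a was lower in all 3 treated animals (-0.44, adjusted p of 0.349 in limma). None of the 16 lists of cell markers had a call in limma. In the list of acute phase and NF-kB response genes, 0 of 15 were called, 1 passed an unadjusted p under 0.05 (Lbp, by 0.40), and the median difference was 0.01.

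Red cell markers went the other way. All 5 measured had a difference above 0, where 56.4% of all genes did. None of the 5 was called, and 4 of the 5 were highest in NTA 2. Without NTA 2, 3 of the 5 were above 0 and the median fell from 0.20 to 0.01. Slc4a1, in this list, is also on the collecting duct list. Hba-a1, a haemoglobin chain, was 8.28, 8.29 and 8.17 with water and 8.27, 8.82 and 8.24 with NTA. Alas2, the red cell enzyme of haem synthesis, was 0.55, 0.31 and 0.36 against 0.51, 1.34 and 0.40. Proximal tubule markers in NTA 2 stood 0.15 above the other treated animals. How far blood or tubule content moved the levels of the 31 genes was not tested.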

How the data were processed

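Renal cortex RNA of 6 rats was measured on 1-colour Agilent arrays. The intensity values, deposited by the authors, are Agilent Feature Extraction 10.7.1.1 processed signals, corrected for background, per the file headers. A second table, deposited by the authors, gives each signal as a ratio to 1 constant per array and served as an alternative.

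From 61657 non-control probes, log2 signal minus the array's 75th percentile was taken. Probes were named by transcript accession through the RefSeq gene table (27460 received 1 symbol). A probe stayed if every array of 1 or both groups passed the scanner software's background flag, and the probe with the highest mean stood for its gene. NTA was compared with water in limma 3.58.1 (R 4.3.3), with Benjamini-Hochberg adjustment over all genes and a threshold of 0.05. The script was tested on simulated data. Alternatives changed normalization, background correction, filter, probe rule, variance model, blocks and arrays. Genes named are every listed gene, and up to 3 others of each list, called ones first, then 2 of lowest p and 1 of highest signal. Exceptions are marked. The genes and lists were chosen with earlier results of these data known. Same-numbered animals did not deviate together (correlations of 0.07, -0.09 and 0.04), so the numbers were not taken as pairs.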

Additional observations from a re-analysis of the deposited data

How the results depend on the processing

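The count of called genes among the 31 was 0 under all alternatives run (quantile normalization, normexp, the authors' deposited table, no filter, a filter on all 6 arrays, the mean of probes, trend and robust variance, scan day, slide, replicate block, and each array left out), with 1 gene at an unadjusted p under 0.05 by limma in the main setting. Calls over all genes ranged from 0 (quantile, no filter, scan day block and replicate block among others) to 38 (trend and robust), with 20 under normexp and 9 in the main setting. Normexp used the median spot signal, chosen after seeing the data, because the planned version on the mean signal was not run. The median difference was -0.39 with slide as a fixed block, which uses the shared slide alone. It was 0.25 within the other scan day, where each group had its own slide. With a replicate block it stayed at 0.07 and 0 genes were called, and 9 of all genes were called without it. With 1 array left out it ranged from -0.12 to 0.24.

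Single differences changed sign as follows, and the cause was not tested beyond the arrays each setting uses. With slide as a fixed block they were C1qa -0.61, C1qb -0.29, C1qc -0.54, C2 -0.91, C4a -0.33, Cfb -0.38, Cd55 -0.0023, C3ar1 -0.38, C5ar1 -0.10, B2m 0.051, Tap2 -0.13, Psmb9 -0.42, Psmb10 -0.024, Cd74 -0.55, RT1-Da -0.65, RT1-Db1 -0.79, RT1-Bb -0.84 and RT1-DMb -0.52. With slide as a random block they were Psmb8 0.0073, Psme2 0.0025 and RT1-DMa 0.0099. With normexp they were Tap2 -0.0095, RT1-DMa 0.059 and RT1-DMb -0.027, and with the mean of probes Cd55 -0.082 and Psme2 8.2e-05. With 1 array left out, the ranges were C1qa -0.16 to 0.48, C1qb -0.0052 to 0.47, C1qc -0.13 to 0.44, C1r -0.27 to 0.11, C1s -0.20 to 0.063, C4a -0.066 to 0.35, C3 -0.67 to 0.058, Cfb -0.076 to 0.44, Cd55 -0.12 to 0.18, C3ar1 -0.024 to 0.27, B2m -0.15 to 0.026, Tap2 -0.063 to 0.17, Tapbp -0.00072 to 0.21, Psmb8 -0.16 to 0.14, Psmb9 -0.15 to 0.17, Psme2 -0.026 to 0.026, Cd74 -0.17 to 0.39, RT1-Da -0.12 to 0.39, RT1-Db1 -0.12 to 0.42, RT1-Bb -0.20 to 0.34, RT1-DMa -0.32 to 0.24 and RT1-DMb -0.20 to 0.32.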
